A study of Mus musculus with 2 samples.

Results

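Chromosome 11 carried the highest density of sWGA peaks of all mouse autosomes, and its 2043 peaks, of 33783 in the whole list (6.05%), are described here. The chromosome was chosen by its measured number of peaks per Mb, and its members were taken as every peak of the sWGA list placed on chromosome 11 of genome build mm9. The list came from ZHBTc4 F-Oct4, an embryonic stem cell line of the mouse in which Oct4 carries a Flag tag. Cross-linked chromatin was precipitated with anti-Flag antibody, released with Flag peptide and bound a second time, either to sWGA, a lectin for N-acetylglucosamine, or to a control matrix, which the labels call input, IgG and agarose beads in different places. Both groups came from the same line and passed the same first precipitation, and the labels give no further treatment, passage or clone. Each group had 1 library, so no value below has a replicate error and no comparison between the groups was tested.

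Oct4, the product of Pou5f1, is a transcription factor that binds DNA together with partners such as Sox2 and is needed to keep embryonic stem cells pluripotent. O-linked N-acetylglucosamine is a sugar that the enzyme Ogt attaches to serines and threonines of nuclear proteins and that Oga removes. In cross-linked chromatin sWGA can also hold other sugar-bearing proteins near Oct4, so a peak marks chromatin recovered after both steps. With the shallow control used here, binding to sWGA cannot be told apart from chromatin carried over from the first step. In a bulk library, binding in more cells and stronger binding per cell cannot be told apart. ZHBTc4 is known as a line whose own Pou5f1 alleles were disrupted and replaced by a transgene that tetracycline represses.

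The sWGA library held 6129874 tags after filtering and the control library 78351, so the sWGA library was 78.2 times deeper. The control therefore entered few calls: only 186 chromosome 11 peaks (9.10%) had a fold read as resting on local control tags. Peaks on chromosome 11 held 33317 tags, 6.46% of the tags in all peaks. Intervals below are exact 95% intervals, cover counting error only and treat peaks as independent, which neighbouring peaks are not.

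Since the density chose the chromosome, it is given as a description without a test. It held 16.8 peaks per Mb over 122 Mb of listed span, against 13.3 per Mb on the other 18 autosomes, a ratio of 1.26 (1.21 to 1.32). Chromosome 10 followed with 15.0 peaks per Mb and chromosome 19 with 14.4. Mouse chromosome 11 is known as gene-rich and carries the genes of Lif, Stat3 and Socs3, which act in the signal that keeps mouse embryonic stem cells undifferentiated, as well as Trp53 and the Hoxb cluster. In a RefSeq gene table of another build, GRCm38.p6, it had 1609 protein-coding genes, or 13.2 per Mb of the listed span, against 8.11 per Mb on the other autosomes. Only chromosome 7 had more, with 13.3 genes per Mb, yet chromosome 7 held 12.3 peaks per Mb. Counted per protein-coding gene, chromosome 11 had 1.27 peaks, fewer than the 1.64 of the other autosomes together, and it stood at rank 16 of 19. Chromosome 11 thus ranked high in peaks per length and low in peaks per gene. The low rank per gene was shared by the other gene-dense autosomes, and it follows largely from gene density itself. Over the autosomes peaks per Mb ranged only from 11.1 to 16.8, while genes per Mb ranged from 5.60 to 13.3. Only chromosomes 19 (1.25), 17 (1.24) and 7 (0.927) had fewer peaks per gene, and they ranked 3, 4 and 1 in genes per Mb.

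**Figure D1:**
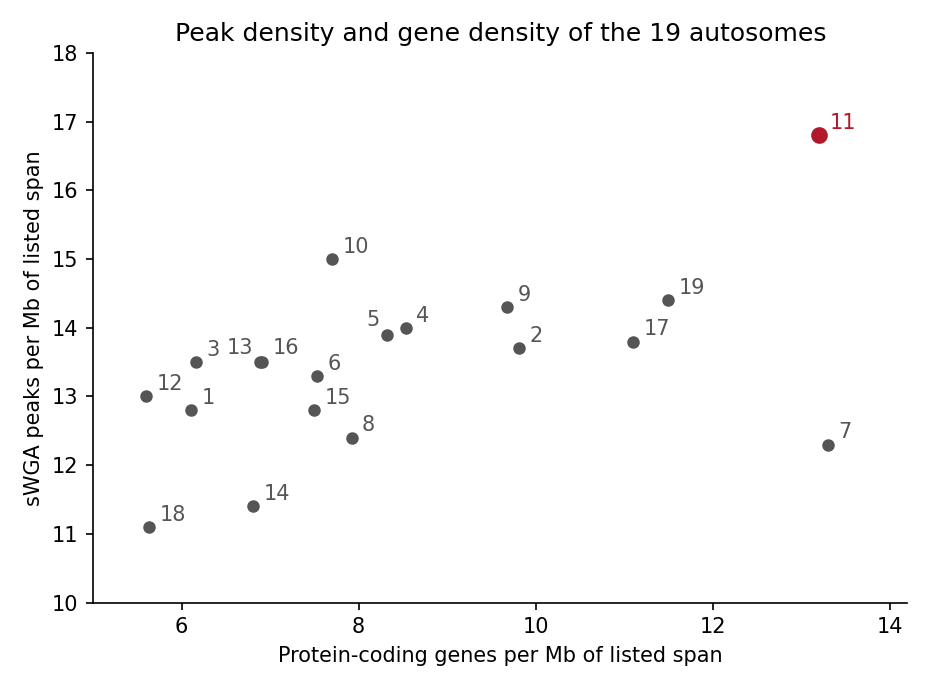
Each point is 1 of the 19 autosomes, labelled by number, with protein-coding genes per Mb (GRCm38.p6 gene counts over the listed mm9 span) on the x axis and sWGA peaks per Mb on the y axis. Chromosome 11 (red) lies at 13.2 genes and 16.8 peaks per Mb, and chromosome 7, at 13.3 genes per Mb, lies at 12.3 peaks per Mb.

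Most chromosome 11 peaks were weak, as in the rest of the list, but strong ones made up a larger share. The median peak held 12 tags, with quartiles of 10 and 17, and the median length was 422 bp, with quartiles of 350 and 498 bp. On the other autosomes the medians were 11 tags and 419 bp. A deposited score of at least 100, where the score is −10 × log10 of the p-value that the caller gave, was reached by 758 chromosome 11 peaks (37.1%, 35.0 to 39.2). The share over the whole list was 33.9%, and on chromosome 7 it was 39.7%, so chromosome 11 stood at rank 2 among the autosomes. At least 18 tags were held by 497 chromosome 11 peaks (24.3%, 22.5 to 26.2), against 21.4% of the whole list. That was rank 3, below chromosome 7 (26.0%) and chromosome 19 (24.7%). The mean was 16.31 tags per peak, close to the 16.21 of chromosome 7. Without the 8 peaks before 3.1 Mb it was 16.05.

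The excess of peaks was larger among stronger peaks. Peaks of 10 tags were 1.13 times as dense on chromosome 11 as on the other autosomes (1.03 to 1.23). The ratio was 1.36 for peaks of 18 to 29 tags (1.21 to 1.53) and 1.60 for peaks of 30 to 59 tags (1.36 to 1.88). The 33 peaks of 60 tags or more gave a ratio of 1.84 (1.25 to 2.64), but without peaks before 3.1 Mb on any autosome 28 remained and the ratio was 1.57 (1.03 to 2.31). The order therefore extends only to the class of 30 to 59 tags, which gave 1.59 (1.35 to 1.87) without those peaks. Peaks of 9 tags, the fewest that the list holds, did not follow this order, with a ratio of 1.27 (1.14 to 1.42). Chromosome 10, the next in density, showed no such order: its ratio was 1.17 at 10 tags (1.07 to 1.27) and 1.03 at 30 to 59 tags (0.843 to 1.24). Chromosome 7 was below the others at 10 tags, at 0.805 (0.733 to 0.881), and reached 1.18 at 18 to 29 tags (1.05 to 1.32). Whether the change of the ratio with tags differs between these chromosomes was not tested.

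**Figure D2:**
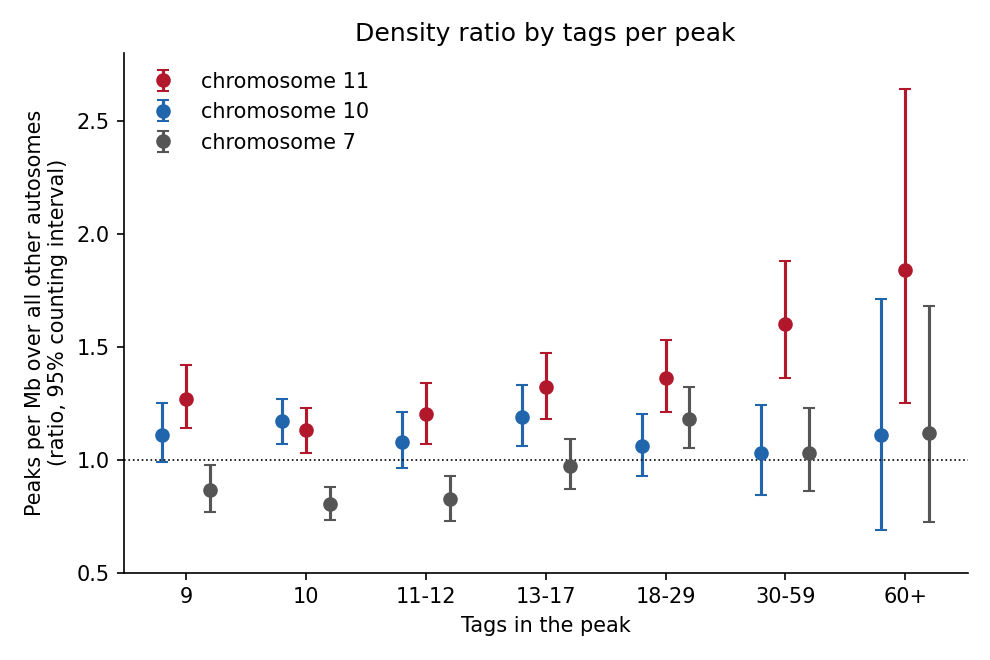
The x axis gives classes of tags per peak and the y axis the peaks per Mb of 1 chromosome divided by those of all other autosomes, with bars for the exact 95% interval of counting error. Chromosome 11 lies at 1.13 for 10 tags and at 1.60 for 30 to 59 tags, while chromosome 10 stays between 1.03 and 1.19.

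Peaks were then counted by summit in 1 Mb windows from position 0. The first 3 Mb held no peak on any autosome, which left 118 full windows on chromosome 11 and 2287 on the other autosomes. The median chromosome 11 window held 16 peaks, with quartiles of 10 and 23 and a range of 2 to 47. The median window of the other autosomes held 12 peaks, with quartiles of 8 and 18 and a range of 0 to 50. No chromosome 11 window was empty. Of the 2287 windows on the other autosomes 24 were, with 11 of them on chromosome 7 and none on chromosome 10. At least 30 peaks were found in 15 chromosome 11 windows (12.7%), against 4.03% of the windows of all 19 autosomes. At most 5 peaks were found in 9 of them (7.63%), against 11.2%. Counts varied more than counting error alone would give, with a variance of 5.30 times the mean on chromosome 11, 4.20 on the other autosomes, 3.68 on chromosome 10 and 7.04 on chromosome 7. A mean chromosome 11 window held 17.2 peaks, and 72 of the 118 (61.0%) lay above the mean of the other autosomes, 13.5.

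The window with the most peaks lay from 69 to 70 Mb. Its 47 peaks fell into 22 groups when peaks within 10 kb were joined, with a median gap of 8.02 kb between summits. The densest group there, 7 peaks with 116 tags, filled 9.82 kb at 69222847 to 69232665, and another of 5 peaks lay at 69517299 to 69535280. No single peak dominated this window, since its strongest, at 69808531 to 69809491, held 51 of 810 tags. The window that starts at 101 Mb followed with 41 peaks in 25 groups. That from 3 to 4 Mb held 40 peaks, those from 115 to 116 Mb and from 116 to 117 Mb held 37 each, and those from 88 to 89 Mb and from 97 to 98 Mb held 36 each. The windows from 62 to 63, 100 to 101 and 98 to 99 Mb held 35, 34 and 33 peaks. Several of these 10 windows adjoin each other, and each broke into 21 to 26 groups, so none was made by 1 subdivided stretch. Together they held 376 peaks, 18.4% of the chromosome's peaks, and 20.5% of the tags in its peaks.

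The emptiest windows lay from 38 to 39 Mb and from 92 to 93 Mb, with 2 peaks each. The window from 36 to 37 Mb held 3 peaks, and those from 24 to 25, 37 to 38, 64 to 65 and 71 to 72 Mb held 4 each. The windows from 65 to 66 and 108 to 109 Mb held 5 peaks and the window from 25 to 26 Mb held 6, as did 3 others. The 4 adjoining windows from 36 to 40 Mb held 15 peaks in all. The widest gap between summits after 3 Mb was 794 kb, from 64169639 to 64963531, and the next was 657 kb, from 38633278 to 39289787. The 10 emptiest windows held 39 peaks, 1.91% of the total. Of these, 6 held at least 18 tags (15.4%), against 110 of 376 (29.3%) in the 10 richest windows. A score of at least 100 was reached by 16 of 39 peaks (41.0%) in the emptiest and 165 of 376 (43.9%) in the richest windows.

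An empty neighbourhood did not preclude a strong peak. The peak at 71315695 to 71316037 held 53 tags in 343 bp and had the eighth highest fold of the chromosome, 100.38, in a window of 4 peaks with a median of 10 tags. The fold is the authors' value for the tags stacked at the summit, divided by either a genome-wide or a local expectation, whichever was larger. With 1 tag worth a fold of 1.97 at the genome-wide expectation, its fold is a height of 51 tags, 96.2% of the tags in the peak.

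The excess over the other autosomes was spread over many windows, with more of it in the denser ones. Over the full windows it came to 430 peaks, 21.2% of the peaks in them. Measured against the mean of the other autosomes, the 10 richest windows held 55.9% of it, and 24 windows (20.3%) had to be removed to bring the rest to that mean. Removing the richest windows from chromosome 11 alone must lower its mean, so the same share was also removed from the other autosomes. The ratio of the means was 1.27 before and 1.27 after 10 windows (8.47%) and their counterparts were left out, and it stayed between 1.24 and 1.28 up to 60 windows. Against windows of the same rank elsewhere, the 10 richest windows held 17.6% of the excess. The windows were also ranked by count and divided into 4 equal classes. The densest class averaged 30.5 peaks against 23.9 in the densest class of the other autosomes, a ratio of 1.28. The ratios of the middle classes were 1.30 and 1.26, and the sparsest class, with 6.47 peaks against 5.27, gave 1.23. Against their counterparts these classes held 43.9%, 30.4%, 17.5% and 8.22% of the excess, from the densest to the sparsest. Over all peaks the ratio was thus similar in each of the 4 classes. For stronger peaks the windows were ranked anew by those peaks alone. With a score of at least 100 the ratios from the sparsest to the densest class were 1.89, 1.55, 1.39 and 1.33, where the sparsest windows averaged 1.57 peaks on chromosome 11 and 0.830 elsewhere. With at least 18 tags they were 3.08, 1.75, 1.49 and 1.35, where the sparsest windows averaged 0.667 peaks on chromosome 11 and 0.217 elsewhere. Ranking by such small counts can itself raise the ratio of the sparsest class. These ratios therefore cannot show whether the excess of stronger peaks differs between the classes.

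**Figure D3:**
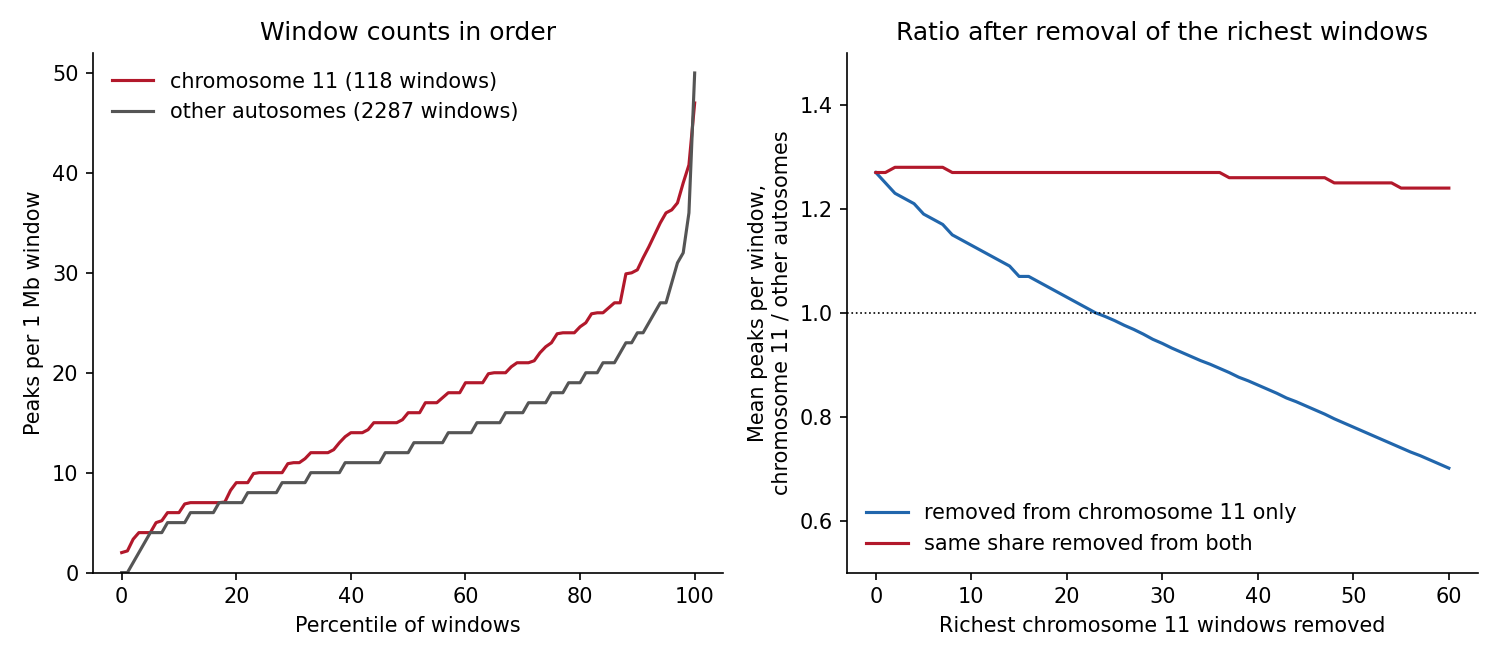
Left, peaks per 1 Mb window (y axis) by percentile of windows (x axis) for the 118 windows of chromosome 11 and the 2287 of the other autosomes. Right, the ratio of mean peaks per window after the richest windows are removed: from chromosome 11 alone it passes below 1 once 24 windows are left out, and with the same share removed from both it stays between 1.24 and 1.28.

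Along the chromosome the excess was uneven. Divided into 4 stretches by position, the windows from 91 to 121 Mb averaged 20.5 peaks and held 48.2% of the excess, with 10 of the 15 windows of at least 30 peaks. Those from 62 to 91 Mb averaged 18.8 peaks and held 35.4%. The windows from 3 to 32 Mb averaged 16.2 peaks and held 18.1%. From 32 to 62 Mb the mean was 13.3 peaks, slightly below the 13.5 of the other autosomes, and no window there reached 30. The longest run of windows above that mean covered 8 windows, from 100 to 108 Mb, with 220 peaks, and was followed directly by the longest run below it, 6 windows from 108 to 114 Mb with 48 peaks. Runs of this length were not particular to chromosome 11. Over the autosomes the longest run above that mean ranged from 4 windows on chromosome 13 to 25 on chromosome 14. The longest below it ranged from 6 windows to 40 on chromosome 14. The distal end of chromosome 11 was thus both its richest stretch and one with a sharp step.

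Over all peaks, those in dense windows held slightly more tags and had about the same median length. In the sparsest class of chromosome 11 windows the 194 peaks had a median of 10 tags (interval 10 to 11) and a mean of 13.8. In the densest class the 884 peaks had a median of 12 tags (12 to 12) and a mean of 17.1. The share with at least 18 tags was 16.5% (11.6 to 22.5) in the sparsest and 25.8% (22.9 to 28.8) in the densest class. The share with a score of at least 100 was 28.4% (22.1 to 35.2), 36.7%, 37.9% and 38.6% (35.4 to 41.9) from the sparsest to the densest. Median length was 418 bp in the sparsest class (397 to 432) and 421 bp in the densest (415 to 430), while the upper quartile was 460 bp and 514 bp. Both statements changed with the peaks counted, where the windows were ranked anew by the peaks kept, so the classes are not the same windows. Among peaks of at least 18 tags the median was 26.5 tags in the densest class (25 to 28) and 37 in the sparsest (23 to 46). That sparsest class averaged only 0.667 peaks per window, and the limits of both medians allow a difference of -21 to 5 tags. Among peaks with a score of at least 100 the median length was 510 bp in the densest class (486 to 536) and 425 bp in the sparsest (342 to 474), and with peaks within 10 kb joined it was 486 bp (459 to 526) and 427 bp (407 to 439). The other autosomes had the same order, from 25.5% of peaks with a score of at least 100 in their sparsest class to 38.0% in their densest.

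These 4 classes hold higher counts on chromosome 11 than elsewhere, so peaks were also compared in windows of equal count. In windows of 30 peaks or more, 42.3% of chromosome 11 peaks reached a score of 100 (38.1 to 46.7), against 41.1% elsewhere (39.3 to 43.0). In windows of 12 to 17 peaks the shares were 35.8% (31.1 to 40.7) and 32.2% (31.3 to 33.2). In windows of 24 to 29 peaks chromosome 11 was lower, at 33.0% (28.1 to 38.1) against 38.1% (36.7 to 39.6). It was higher in the remaining ranges. The shares were 36.4% (20.4 to 54.9) and 27.4% (24.5 to 30.6) at up to 5 peaks. They were 29.8% (24.1 to 35.9) and 27.7% (26.6 to 28.7) at 6 to 11 peaks. At 18 to 23 peaks they were 39.2% (34.7 to 43.8) and 36.5% (35.4 to 37.6). In all 6 ranges of window count tried the intervals overlapped, which does not show that the shares are equal. Median tags differed by at most 1.

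**Figure D4:**
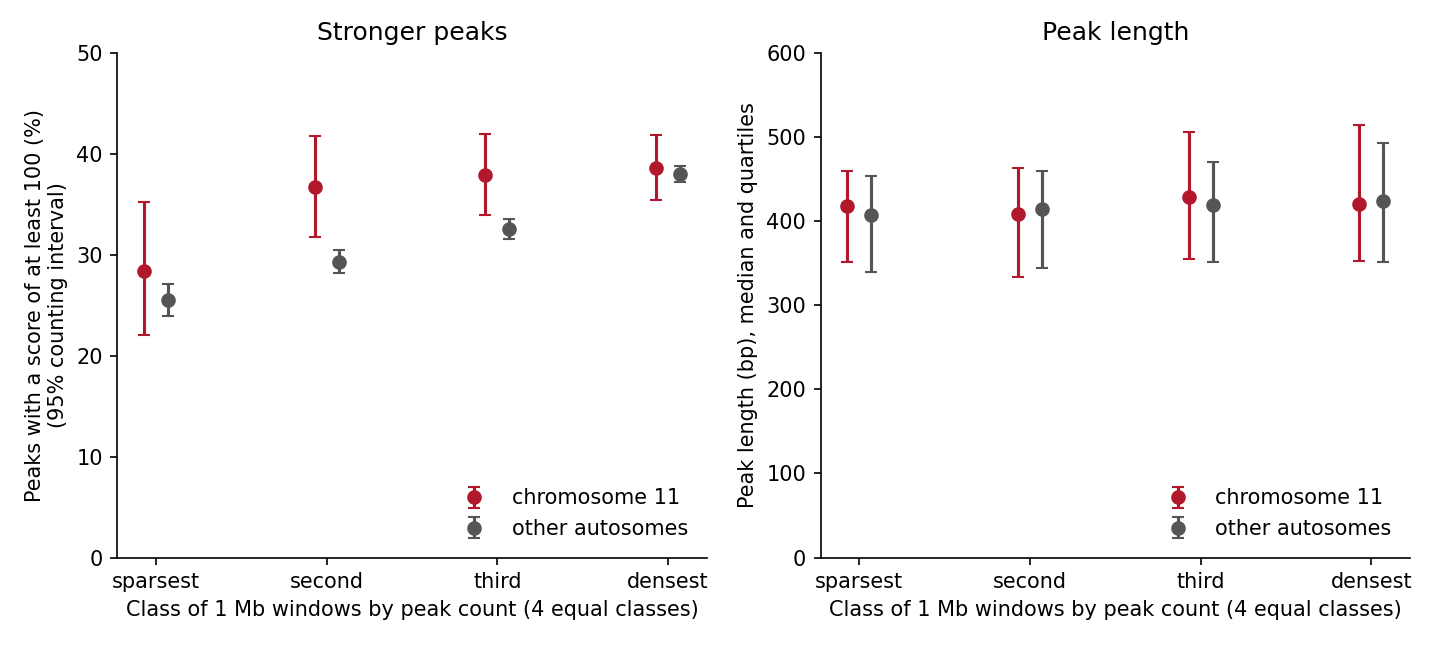
The x axis gives the 4 classes of 1 Mb windows from sparsest to densest, for chromosome 11 (red) and the other autosomes (grey). Left, the percent of peaks with a score of at least 100 with exact 95% counting intervals, from 28.4% to 38.6% on chromosome 11; right, median peak length with bars for the quartiles, 418 bp in the sparsest and 421 bp in the densest class.

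Peaks also stood closer together on chromosome 11, as a denser chromosome must give. The median distance to the nearest summit was 12.6 kb, against 17.2 kb on the other autosomes, and 638 peaks (31.2%) had another summit within 5 kb, against 25.6%. With peaks joined over gaps of up to 10 kb there were 1481 groups. Single peaks made up 1114 of them (75.2%), against 79.4% on the other autosomes. Groups of 5 or more numbered 15 (1.01%), against 0.716% on the other autosomes and 1.06% on chromosome 7. The group with the most peaks had 8 peaks with 120 tags at 22979960 to 23010645, and the next had 7 peaks with 137 tags at 96638731 to 96657794. The other autosomes had groups of up to 29 peaks. The chromosome 11 ratio to the other autosomes was 1.19 (1.13 to 1.25) when each group counted once.

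The pair of peaks with the highest folds on the chromosome lay in the window just after the one that starts at 101 Mb. It held 32 peaks. The first peak, at 102017552 to 102018094, held 88 tags in 543 bp and had a fold of 157.45. The second, at 102190599 to 102191514, held 223 tags in 916 bp, a fold of 283.41 and the highest score of the list, 3100. That score is no measure of strength, since 672 control regions, 39 of them among the 43 on chromosome 11, have exactly the same value. It ranked the third by tags and the second by fold among all 33783 peaks, and the first peak of the pair ranked the ninth by fold. The summits were 173 kb apart. The second peak had 2.53 times the tags of the first but 1.80 times its fold. Read from the fold, the first rose to 80 tags at the summit, 90.9% of its tags, and the second to 144 tags, 64.6% of its tags. The first was thus a compact peak and the second a broader one, at 162 and 243 tags per kb.

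Between both lay 4 peaks of 9 to 15 tags, so the pair did not form 1 enriched stretch. The second peak had close company on its far side: a peak of 10 tags began 392 bp after its end and one of 29 tags 1594 bp after it. These 3 peaks held 262 tags within 3016 bp. The other 30 peaks of the window held 9 to 45 tags, with a median of 14.5. The pair supplied 311 of the 811 tags in the window's peaks (38.3%), but only 0.933% of the tags in all chromosome 11 peaks. The list called on the control held no region in this window, and both folds rest on the genome-wide expectation. Neither is particular to the pair. Of the 29 windows in the densest class only 7 held a control region, and only 9.10% of chromosome 11 peaks had a fold read as local.

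**Figure D5:**
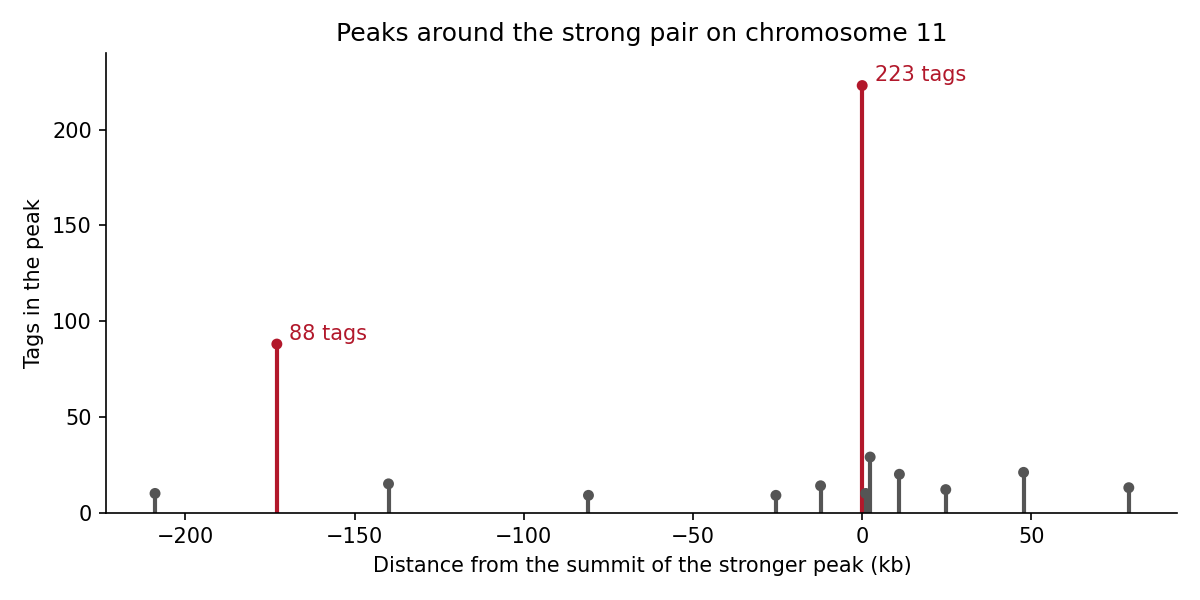
Each line is 1 peak within 100 kb of the pair or between its members, with its distance in kb from the summit of the stronger peak on the x axis and its tags on the y axis. The pair (red) holds 88 and 223 tags at a distance of 173 kb, and the peaks between them hold 9 to 15.

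Of the 16 peaks with the most tags or the highest fold, 4 stood high by both measures: the second of the pair and those at 60230259 to 60231142 (112 tags, fold 153.52), 106585384 to 106586099 (99 tags, fold 135.8) and 78061045 to 78061722 (94 tags, fold 129.9). By window, 11 of the 16 lay in the densest class, 4 in the next and 1, the peak at 71315695, in the sparsest. Of the 11 in the densest class, 4 lay before 3.1 Mb in the single window from 3 to 4 Mb. The densest class held 884 of the 2029 peaks in full windows.

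Several peaks at the start of the chromosome held many tags, some of them at very low folds. From the first peak at 3002181 to 3.1 Mb there were 8 peaks with 654 tags, and they included 4 of the 7 chromosome 11 peaks of at least 100 tags. The peak at 3066445 to 3068560 held 142 tags over 2116 bp, with a fold of only 4.36. That at 3089227 to 3090729 had 127 tags and the fold 3.99, the lowest of the whole list. The peak at 3053731 to 3055510 held 117 tags with a fold of 17.32, above the chromosome's median of 15.75. In 7 of the 8 the fold was not a whole number of tags over the genome-wide expectation (tolerance 0.01), which is read here as a local background of control tags. Over chromosome 11 that held for 186 peaks (9.10%, 7.89 to 10.4), against 8.79% of the whole list. For 168 of the 186 (8.22% of all chromosome 11 peaks) the fold matched a background of only 1 control tag in 10 kb. In the same 100 kb, 5 other autosomes had peaks, of which chromosome 17 had the most with 5 peaks and 134 tags, and none of them held 100 tags. A similar peak away from the start, at 77794894 to 77796296, had 120 tags and the fold 7.64. Without the window from 3 to 4 Mb on any autosome, the ratio of chromosome 11 to the others was 1.25 (1.19 to 1.31).

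The control list is read as the exchanged call, with the smaller control library scaled up, so it is not an equal measure of background. It held 43 regions on chromosome 11, or 0.353 per Mb against 0.279 on the other autosomes, which was rank 3 of 19. Whether the excess of peaks on chromosome 11 is particular to the sWGA library was not tested. Of the 43 regions, 37 rested on 3 tags, while every sWGA peak held at least 9. The region with the most tags, 19, lay at 5906338 to 5906671 and had a fold of only 0.64. Control regions were not more numerous in windows rich in sWGA peaks: from the sparsest to the densest class of windows they numbered 12, 12, 10 and 9. The 10 emptiest windows held 10 control regions in 6 windows, and the 10 richest held 2, both in the window from 69 to 70 Mb. Each list was called with the other library as its background, and the part of that calling in this difference was not tested.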

How the data were processed

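The lists were used as deposited, with 1-based mm9 positions; mm9 is named in the submitters' processing notes, and the aligner is not given in the sources used here. Per the file headers, MACS 1.4.1 called peaks on 1 library against the other at a p cutoff of 1e-05, with a fragment length of 155 bp, and scaled the smaller library up. The control list is read as the exchanged run of the same call. The deposited tags are whole unscaled counts per region, the deposited score is −10 × log10 of the authors' p-value, the fold is deposited as a ratio at the summit, and the deposited FDR is a percent that is not used here. It is 100% for 54 chromosome 11 peaks (2.64%), among them both peaks of the pair, and for 2.18% of peaks on the other autosomes. Lengths and summits are deposited in bp.

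Densities were taken over the position of the last region in either list. Full 1 Mb windows after 3 Mb were ranked with ties by position. Ratios and shares carry exact (Clopper-Pearson) 95% intervals, and medians carry intervals from order statistics. Python 3.11.15, numpy 2.4.6, pandas 2.3.3 and scipy 1.17.1 were used. The window steps were run on simulated lists with the excess either in every window or in few windows. Those lists had independent windows and a larger excess than observed, so they check the code only. No test between groups was possible with 1 library each. Named windows are the 10 with the most and the 10 with the fewest peaks; named peaks are the 10 with the most tags, the 10 with the highest fold and the pair. The members, lists and rules were chosen with earlier results of these data known, and the classes of tags, equal window counts, stretches and the start of the chromosome were added after values were seen. The gene and promoter tables at hand are of GRCm38.p6, so they gave genes per chromosome only: peaks were assigned to no gene, the planned distances to gene starts were not run, and no sequence is printed.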

Additional observations from a re-analysis of the deposited data

How the results depend on the processing

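No paired analysis was possible because there was 1 library per group, which also left no replicate to leave out. Of 94 values recomputed for 11 results, 67 stayed within the interval of the reported value (or within 1.5 times a count), 26 moved beyond it and 1 reversed. A score of at least 100 left 758 peaks, a ratio of 1.39 and a median of 5 per window. At least 18 tags left 497 peaks, a ratio of 1.46 and a median of 3. Joining peaks within 10 kb gave a ratio of 1.19 and a median of 12. Windows of 2 Mb and 0.5 Mb, which hold other counts by construction, gave medians of 32 and 7, with 15 and 37 windows to remove; in 0.5 Mb windows the richest 10 Mb held 65.9% of the excess. In the densest class the median tags were 21, 26.5 and 16, and the median lengths 510, 614 and 486 bp, for a score of at least 100, at least 18 tags and joined peaks. These values are among the 26 that moved. Such settings keep only stronger peaks or add joined ones up, so a rise of these medians is largely built in. In the sparsest class median tags were 18 with a score of at least 100. With at least 18 tags they were 37 and the median length 582 bp. The difference in median tags, densest minus sparsest, was 2 as reported, 3 with a score of at least 100 and 5 with joined peaks. It reversed to -10.5 with at least 18 tags, where the limits of both medians allow -21 to 5, and the cause was not tested. Windows were ranked anew in each setting, so the classes are not the same windows. The difference in median length, 2.5 bp as reported, was 84.5 bp with a score of at least 100 and 58.5 bp with joined peaks. With the richest windows removed from both sides, the ratio was 1.20 to 1.52 over these settings. Leaving out the window from 3 to 4 Mb, or peaks with a local background, was added after seeing the data and moved none of these 11 results.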
